A study of Mus musculus with 26 samples.

Results

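The mesenteric arteries of Panx1 knockout mice were compared with those of control mice from other lines. The aim was to see which differences between the knockout and its own wild-type group also hold when these controls take the place of that group. The 9 libraries, of 26 in the series, were chosen by their labels alone: 3 of the global Panx1 knockout, 3 of controls kept for the Y198F line and 3 of controls kept for the Y308F line. The 3 wild-type libraries labelled as partners of the knockout are given beside them, so that 9 libraries, called unmutated from here on, stand against the knockout. All samples were mesenteric arteries of male mice aged 8 weeks, read as bulk RNA with no treatment named. The labels write the genotypes as Panx1 KO, WT, Y198F-/- and Y308F-/-, the last pair under titles that call these mice controls, and describe controls in general as littermate or WT. That these 6 controls carry no Panx1 mutation is taken from their titles and is not stated for each mouse. Strain, the knockout allele and the part of Panx1 it removes are not given in the sources used here, nor is the origin of each vascular tree beyond its replicate number. The p-values therefore measure only the spread between these libraries. Knockout genotype and knockout colony cannot be told apart here, because all 3 knockout libraries carry both.

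Pannexin 1, encoded by Panx1, forms large-pore channels in the plasma membrane that let ATP and other small molecules leave the cell. In the wall of resistance arteries it is known for releasing ATP from smooth muscle cells when adrenergic receptors are stimulated, and ATP then acts on purinergic receptors and is broken down to adenosine by ectoenzymes. Channel opening is regulated by phosphorylation, by caspase cleavage and by other signals.

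The 12 libraries held between 17.3 and 23.1 M counts (M, mega). The label of the tissue was checked against its markers: the 16 smooth muscle contractile genes together took 35279 to 59548 CPM (counts scaled to the effective size of each library) in the 12 libraries, and the 14 endothelial genes took 3810 to 11687 CPM. The 8 pancreatic acinar genes summed to 6.49 to 13.3 CPM, with no count of Prss2 but enough of Cela1 and Cpb1 to test them. The 7 genes of intestinal epithelium summed to 10.3 to 17.4 CPM, with no count of Epcam but enough of Vil1 and Lgals4. Y308F control 1 stood apart: it held the 11687 CPM of endothelial genes, while the other 11 libraries held at most 6196 CPM, its ribosomal RNA genes took 7.09% of counts against 2.32% to 3.09% in the knockout, and it lay at 64.8 on the second principal component, where the next library lay at 12.3. Counts that turn on it are given with and without it.

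Panx1 itself was low in the knockout. Its level was 0.586, 0.944 and 1.36 CPM in knockout libraries 1 to 3, 3.27, 3.5 and 2.25 CPM in Y198F controls 1 to 3, 4.28, 3.30 and 1.75 CPM in Y308F controls 1 to 3, and 4.85, 3.38 and 4.69 CPM in wild types 1 to 3. Every knockout library lay below every unmutated library, and Y308F control 3 was the nearest of those. The mean fell by 2.09 CPM, from 3.06 ± 0.912 CPM (SD, n = 6) in the controls to 0.963 ± 0.386 CPM (SD, n = 3) in the knockout, with an exact two-sided permutation p of 0.0238, the smallest that 3 against 6 libraries can give. The gene is scarce in whole arteries, with 11 to 27 counts per knockout library and 32 to 95 per control library. In the fit across all genes the log2 fold change was -1.66 (SE 0.38). That did not pass after adjustment with edgeR (adjusted p = 0.634) and did with DESeq2 (adjusted p = 0.0124). Panx1 (chr9:14913424-14956813, minus strand, GRCm39) shares exon sequence with Gm68912, and the counts cover the whole gene whatever part the allele removes. Its paralog Panx2 was near the limit of detection, at 0.0533 to 0.189 CPM in the knockout and 0.0547 to 0.338 CPM in the 6 controls, and Panx3 had no count in any of the 12 libraries, where a count of 0 allows up to 0.169 CPM in the shallowest library. Neither paralog could be tested.

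**Figure D1:**
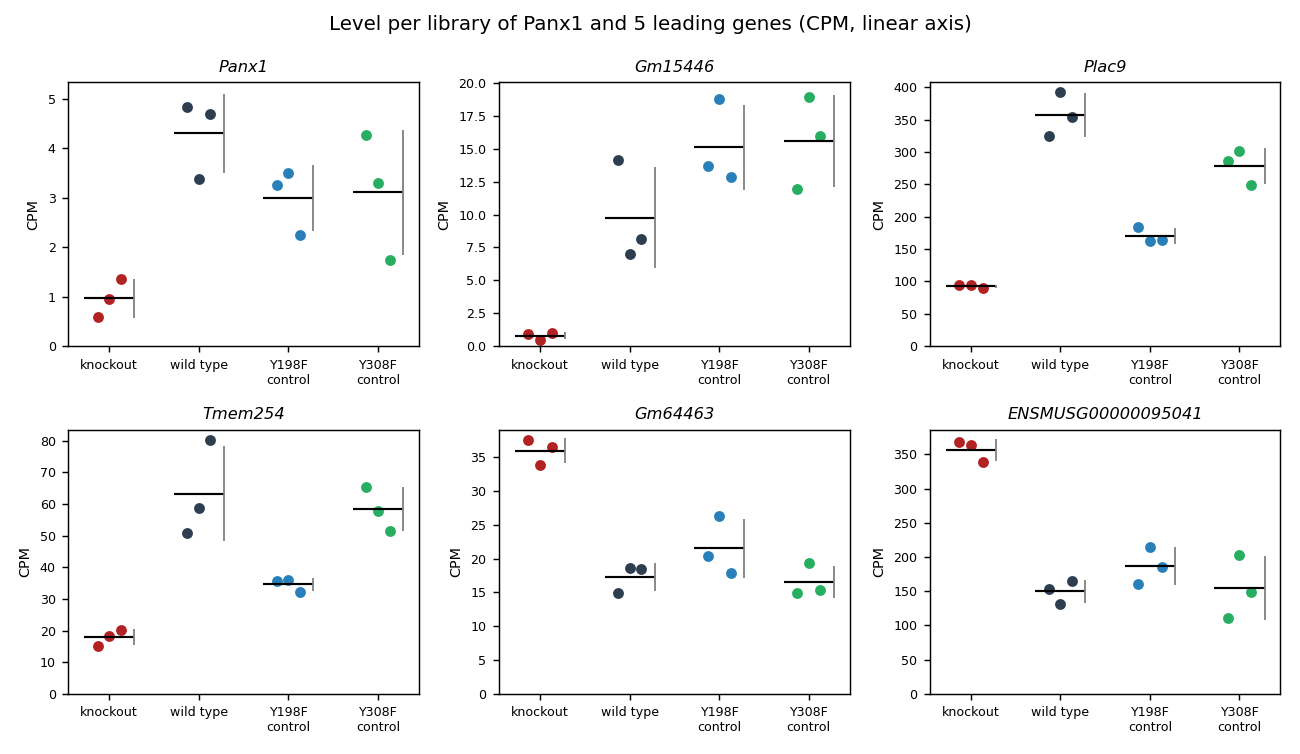
Level in CPM (linear axes from 0) of Panx1 and 5 leading genes in each of the 12 libraries. Points are libraries, horizontal lines group means and vertical lines the SD (n = 3 per group). In all 6 panels the 3 knockout libraries lie outside the 9 unmutated ones.

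Across all genes, 1 of 16743 tested passed an adjusted p of 0.05 against the 6 controls with edgeR's quasi-likelihood test (0.00597%), and none of these was higher in the knockout. It was Gm15446, a predicted gene on chromosome 5. At an unadjusted p under 0.05 there were 1102 genes (6.58%), of which 566 were higher (3.38%) and 536 lower (3.2%). DESeq2 on the same libraries passed 26 genes (0.155%), 6 higher (0.0358%) and 20 lower (0.119%), and 54 without Y308F control 1. The knockout libraries lay outside the range of the 6 controls in 730 genes (4.36%) and outside the range of all 9 unmutated libraries in 343 genes (2.05%), or 940 and 395 genes without Y308F control 1. In the wild-type libraries, set against the same 6 controls in a fit of the same size, edgeR passed 0 of 16745 genes, with 1196 at an unadjusted p under 0.05 (7.14%). DESeq2 passed 39 (0.233%), and 574 genes had wild-type libraries outside the controls (3.43%). The counts for this unmutated group were thus 0, 39 and 574 where those for the knockout were 1, 26 and 730, in comparisons that share the 6 control libraries. Without Y308F control 1 the counts were 0, 64 and 932 for the wild types and 2, 54 and 940 for the knockout.

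**Figure D2:**
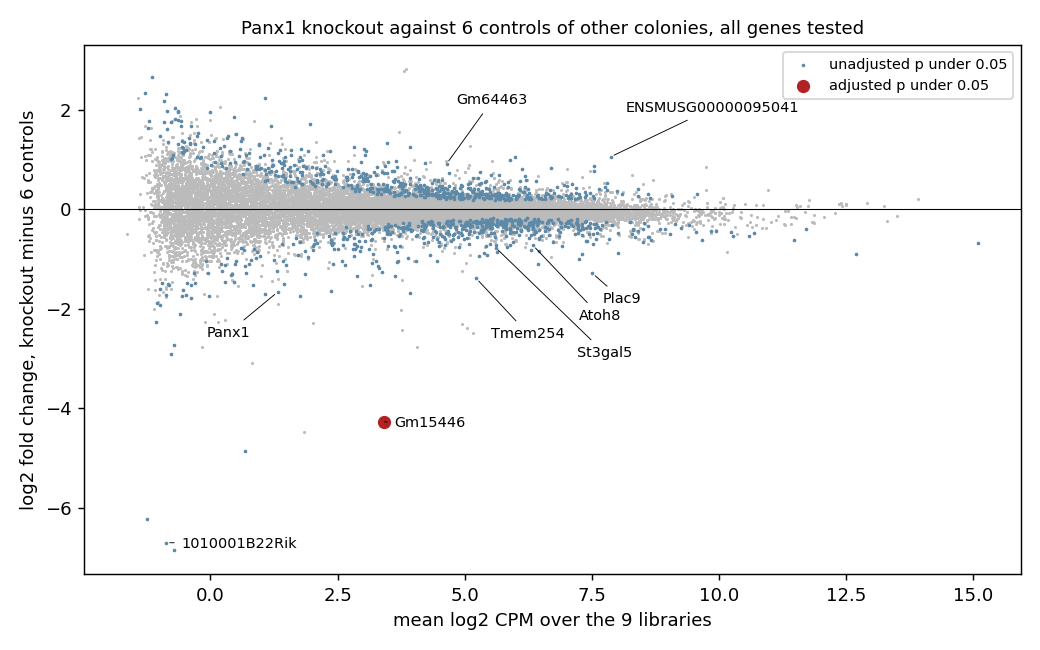
Log2 fold change of the knockout against the 6 controls (vertical axis) by mean log2 CPM over the 9 libraries (horizontal axis), 1 point per gene. The red point, Gm15446, had an edgeR adjusted p under 0.05 and blue points an unadjusted p under 0.05; the labelled genes are described in the text.

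Gm15446 fell to 5.17% of its control level. It stood at 0.906, 0.472 and 1.01 CPM in knockout libraries 1 to 3, at 13.7, 18.8 and 12.8 CPM in the Y198F controls, at 11.9, 18.9 and 16.0 CPM in the Y308F controls, and at 14.1, 6.99 and 8.15 CPM in the wild types. The knockout did not overlap any unmutated library, and the control lines overlapped each other. The log2 fold change was -4.27 (SE 0.28 and edgeR adjusted p = 3.98e-05), and against wild type the gene fell by 3.64 on the log2 scale (SE 0.35 and edgeR adjusted p = 0.000466). It passed in all 19 alternative fits against the controls, with log2 fold changes between -4.49 and -4.0 and adjusted p from 2.94e-44 to 0.00668.

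Gm15446 lies at chr5:110071266-110093477 on the plus strand of GRCm39, is listed as protein coding by GENCODE, and shares exon sequence with Gm26808 and ENSMUSG00000121597. RefSeq places the start of Gm15446 elsewhere in it: the RefSeq window of 300 bases around that start, at chr5:109933313-109933612 of GRCm38.p6, has 1 exact match on chromosome 5 of GRCm39, at chr5:110081179-110081478, so that the RefSeq start lies 10163 bases inside the GENCODE gene. The window is shown because it begins the transcript of the gene with the lowest adjusted p, and capitals mark the 50 bases from the RefSeq start on.
Gm15446: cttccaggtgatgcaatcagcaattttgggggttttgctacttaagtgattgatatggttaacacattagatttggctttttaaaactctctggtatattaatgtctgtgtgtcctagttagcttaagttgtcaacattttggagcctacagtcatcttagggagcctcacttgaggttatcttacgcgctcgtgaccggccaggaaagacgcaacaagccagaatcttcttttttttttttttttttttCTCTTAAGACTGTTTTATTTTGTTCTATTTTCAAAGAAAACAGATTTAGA

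Beside Gm15446, the long noncoding gene 1010001B22Rik (chr5:110135156-110144460, minus strand, overlapping an exon of Zfp932) had 0 counts in each of the 3 knockout libraries. The 6 controls had 6 to 26 counts each, or 0.270 to 1.30 CPM, and the wild types had 1 to 3 counts. Set against a floor of 3 counts per library, the knockout was at least 4.39-fold lower than the controls. The edgeR adjusted p was 0.298 and the DESeq2 adjusted p was 0.00511. The wild-type libraries were also below all 6 controls, at 0.0494 to 0.166 CPM, around the level of that floor. Zfp932, a zinc finger gene, was at 29.9 ± 2.73 CPM (SD, n = 3) in the knockout and 25.2 ± 4.33 CPM (SD, n = 6) in the controls (edgeR adjusted p = 0.738). Of the 32 other genes tested with a start within 1 Mb of that of Gm15446, 3 had an unadjusted p under 0.05 (9.38%, beside 6.58% of all genes): 1010001B22Rik and Ulk1, an autophagy kinase, were lower and Gm10416 was higher.

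Of the 26 other genes tested within 5 Mb of the Panx1 start on chromosome 9, 0 passed with edgeR, 0 had an unadjusted p under 0.05 and the smallest was 0.0703. Over all genes those shares were 0.00597% and 6.58%. Their log2 fold changes ran from -0.54 to 1.15.

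Plac9, which encodes a small secreted protein, and its neighbour Tmem254, a transmembrane protein gene, lay below every unmutated library in the knockout. By unadjusted p they ranked 6 and 12 of all genes tested. Plac9 stood at 94.3, 93.6 and 89.6 CPM in knockout libraries 1 to 3, at 184, 163 and 164 CPM in the Y198F controls, at 285, 302 and 248 CPM in the Y308F controls, and at 325, 392 and 354 CPM in the wild types. The 3 unmutated groups formed a ladder without overlap, Y198F controls lowest and wild types highest, and the knockout lay below all of them. Tmem254 had the same order in part: 15, 18.4 and 20.1 CPM in the knockout, 35.8, 35.9 and 32.1 CPM in the Y198F controls, 65.5, 57.9 and 51.6 CPM in the Y308F controls and 51.0, 58.7 and 80.2 CPM in the wild types, so that the last 2 groups overlapped.

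The control lines differed, and the 6 controls taken as 1 group had a wide spread, 225 ± 62.2 CPM (SD, n = 6) for Plac9 and 46.5 ± 13.8 CPM for Tmem254. With them the log2 fold change was -1.29 (SE 0.22 and edgeR adjusted p = 0.283) for Plac9 and -1.39 (SE 0.25 and edgeR adjusted p = 0.298) for Tmem254. With the control lines as separate groups in the same 9 libraries both genes passed, at -1.24 (edgeR adjusted p = 0.000884) and -1.33 (edgeR adjusted p = 0.00179). Over the 19 alternatives Plac9 passed in 5, with adjusted p from 8.89e-06 to 0.97, and Tmem254 in 4, with adjusted p from 2.94e-05 to 0.97. The size depended on the line: Plac9 was lower by a log2 difference of -0.88 against the Y198F controls alone and -1.60 against the Y308F controls alone, and -1.97 (SE 0.12) against wild type. Between the control lines themselves, Plac9 differed by -0.73 on the log2 scale (Y198F minus Y308F, unadjusted p = 3.46e-05 in the fit of 12 libraries), but no gene of that comparison passed after adjustment with edgeR (0%, with 1479 genes or 8.56% at an unadjusted p under 0.05).

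Both genes lie together on chromosome 14 of GRCm39, Plac9 at chr14:25886804-25903634 and Tmem254 at chr14:25923724-25928096, both on the minus strand, and an exon of Plac9 overlaps Anxa11. Anxa11, a calcium-dependent membrane-binding protein gene, differed by -0.05 on the log2 scale (SE 0.10) between knockout and controls. Of the 17 other genes tested within 1 Mb of Plac9, Tmem254 was the 1 with an unadjusted p under 0.05 (5.88%, near the 6.58% of all genes). The older build GRCm38.p6 holds 3 copies of each gene in RefSeq, Plac9a, Gm9780 and Plac9b, and Tmem254a, Tmem254c and Tmem254b, where GENCODE on GRCm39 lists 1 of each. The start windows of Tmem254a (chr14:25927623-25927922, minus strand, GRCm38.p6) and Tmem254c are identical over 300 bases, those of Tmem254a and Tmem254b share a run of 284 bases, and those of Plac9a (chr14:25902844-25903143) and Plac9b (chr14:26182302-26182601) share a run of 222 bases. Each of these windows has 1 exact match on chromosome 14 of GRCm39, and the matches overlap. Plac9a matches chr14:25903268-25903567 and Plac9b chr14:25903346-25903645, and their run of 222 bases is that overlap. Tmem254a matches chr14:25928047-25928346 and Tmem254b chr14:25928031-25928330, and their run of 284 bases is again the overlap. The lengths of both runs thus follow from different RefSeq starts. No window of Gm9780 was matched, nor were exons beyond the windows, and the number of copies in each colony was not measured. The sequences are shown as the start windows of the copies, with the run common to Plac9a and Plac9b in capitals. Their lower-case bases come from different positions on GRCm39, so they are not mismatches between the copies. The Tmem254a window is that of Tmem254c as well.
Plac9a: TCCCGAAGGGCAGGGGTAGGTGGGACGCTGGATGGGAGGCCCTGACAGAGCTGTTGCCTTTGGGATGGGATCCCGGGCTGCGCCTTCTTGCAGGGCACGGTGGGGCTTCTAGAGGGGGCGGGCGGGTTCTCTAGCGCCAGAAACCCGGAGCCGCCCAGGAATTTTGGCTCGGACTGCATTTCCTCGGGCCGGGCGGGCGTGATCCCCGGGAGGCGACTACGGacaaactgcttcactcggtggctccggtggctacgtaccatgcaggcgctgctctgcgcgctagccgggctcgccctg
Plac9b: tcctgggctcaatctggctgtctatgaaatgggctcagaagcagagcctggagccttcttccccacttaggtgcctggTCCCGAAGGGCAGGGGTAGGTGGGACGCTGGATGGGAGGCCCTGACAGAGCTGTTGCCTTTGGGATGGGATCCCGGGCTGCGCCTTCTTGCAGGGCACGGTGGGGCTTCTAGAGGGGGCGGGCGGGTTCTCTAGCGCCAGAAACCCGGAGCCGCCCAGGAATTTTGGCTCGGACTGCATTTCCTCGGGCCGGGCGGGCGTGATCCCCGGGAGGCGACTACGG
Tmem254a: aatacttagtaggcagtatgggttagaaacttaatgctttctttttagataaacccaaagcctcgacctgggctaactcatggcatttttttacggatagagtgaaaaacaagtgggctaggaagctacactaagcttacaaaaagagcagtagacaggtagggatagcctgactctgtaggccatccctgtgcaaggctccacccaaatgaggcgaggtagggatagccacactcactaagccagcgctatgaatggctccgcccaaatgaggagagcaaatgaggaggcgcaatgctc

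**Figure D3:**
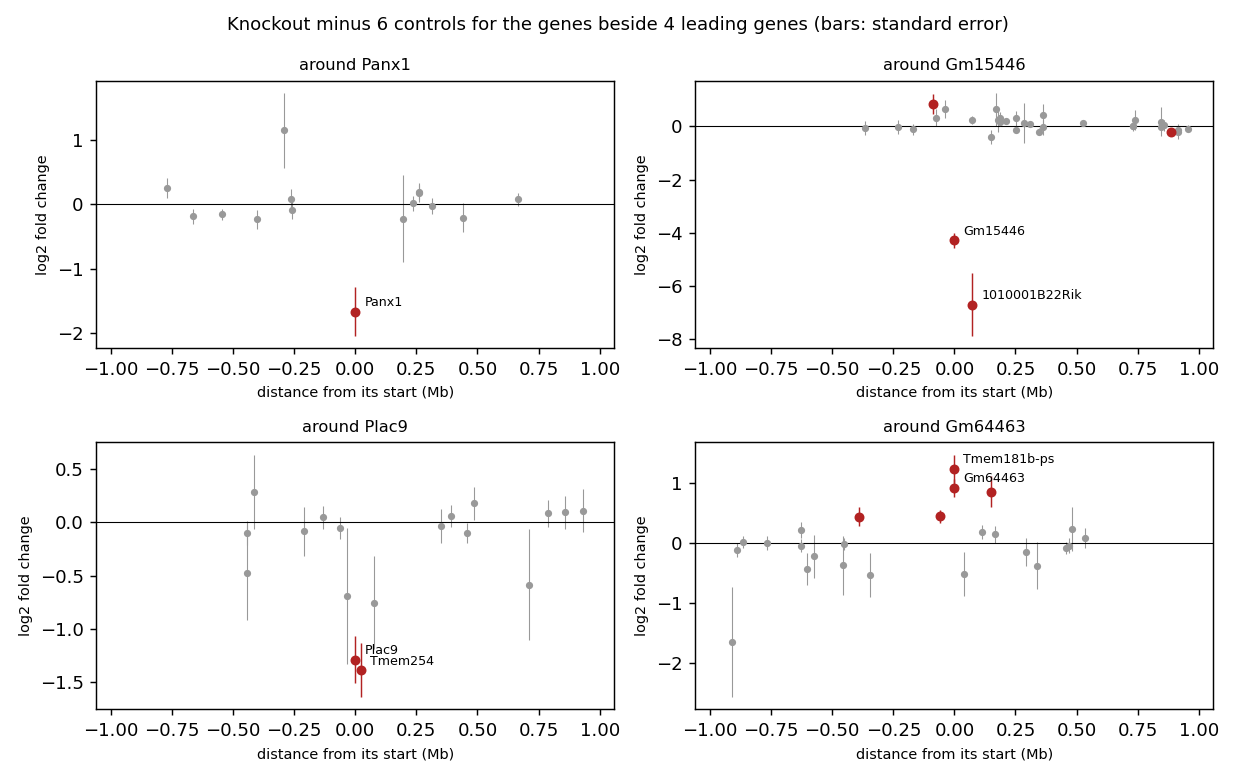
Log2 fold change of the knockout against the 6 controls for the genes tested within 1 Mb of 4 leading genes, by distance between starts. Bars are standard errors and red points have an unadjusted p under 0.05. Red neighbours number 0 of 14 around Panx1, 3 of 32 around Gm15446, 1 of 17 around Plac9 and 4 of 24 around Gm64463, beside 6.58% of all genes.

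On the higher side, Gm64463 and ENSMUSG00000095041 had the lowest p-values, and neither passed after adjustment. Gm64463, a long noncoding gene, stood at 37.5, 33.9 and 36.5 CPM in the knockout, at 20.4, 26.3 and 17.9 CPM in the Y198F controls, at 15, 19.3 and 15.3 CPM in the Y308F controls and at 15, 18.6 and 18.4 CPM in the wild types. The knockout lay above all 9 unmutated libraries, which overlapped each other. The log2 fold change was 0.92 (SE 0.15 and edgeR adjusted p = 0.197, DESeq2 adjusted p = 0.000683). The gene spans chr17:6705923-6757893 on the minus strand and contains the pseudogene Tmem181b-ps (chr17:6708801-6757783), so the counts of these 2 genes are not independent and their split is uncertain. Tmem181b-ps was at 3.36 ± 0.400 CPM (SD, n = 3) in the knockout and 1.42 ± 0.148 CPM (SD, n = 6) in the controls. Of the 24 other genes tested within 1 Mb, 4 had an unadjusted p under 0.05 (16.7%, beside 6.58% of all genes), all on the higher side (3.38% of all genes): Tmem181b-ps, Tmem181c-ps and the dynein light chain genes Dynlt1a and Dynlt1b. Dynlt1a, Dynlt1b, Dynlt1c and Dynlt1f are near copies in this region, and reads they share may be split between them.

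ENSMUSG00000095041, for which no symbol or position was found in GENCODE vM39, had the highest knockout level of the leading genes, while Plac9 was higher in the controls and wild types. It stood at 368, 363 and 338 CPM in knockout libraries 1 to 3, at 160, 215 and 186 CPM in the Y198F controls, at 111, 204 and 148 CPM in the Y308F controls and at 153, 131 and 164 CPM in the wild types. The knockout was 2.09-fold above the control mean and did not overlap any unmutated library. The log2 fold change was 1.06 (SE 0.17 and edgeR adjusted p = 0.197, DESeq2 adjusted p = 3.35e-05). Without Y308F control 1 it passed with edgeR, at 0.97 (adjusted p = 0.0304), and Gm64463 passed without Y198F control 2, at 1.03 (adjusted p = 0.0298). With any other library left out neither passed, and the highest edgeR adjusted p was 0.970 for each, without knockout 3. Each passed in 6 of 19 alternatives, with log2 fold changes from 0.94 to 1.2 for ENSMUSG00000095041 and from 0.75 to 1.11 for Gm64463.

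The knockout was next set against wild type within the fit of 12 libraries, which tests whether these 2 groups differ, whichever of them is the farther from the 6 controls. There 6 of 17274 genes passed with edgeR (0.0347%), 2 higher (0.0116%) and 4 lower (0.0232%), and DESeq2 passed 107 (0.619%). They were Plac9, Gm15446, Tmem254, Hrct1, Gm64463 and ENSMUSG00000095041, and in all 6 the knockout libraries, which both comparisons share, lay outside the 6 controls too, as in 4.36% of all genes. Hrct1 encodes a small histidine-rich protein. Its level was 15.1, 17.0 and 16.1 CPM in the knockout, 23.5 to 30.8 CPM in the 6 controls and 25.6 to 32.9 CPM in the wild types, so that the knockout lay below all of them. Its log2 fold change against the controls was -0.66 (SE 0.12 and edgeR adjusted p = 0.283, DESeq2 adjusted p = 0.00151) and against wild type -0.90 (SE 0.13 and edgeR adjusted p = 0.0341). Without Y308F control 1 the count against wild type was 12, and with any 1 knockout library left out it was 3.

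The authors' deposited table of knockout against wild type holds 20 genes past an adjusted p of 0.05 out of 14914 (0.134%), 4 higher and 16 lower. Those genes were chosen on the same knockout libraries, so the knockout values are not new here and only the 6 controls are. Against these controls the knockout libraries lay outside the range, in the direction of the authors' deposited table, for 11 of the 20, where 4.36% of all genes lay outside. In the other 9 the knockout overlapped the controls, and in 3 of these, Rpl7a, Chchd2 and Chic1, every knockout library was within the control range. The 11 also lay outside all 9 unmutated libraries, as 2.05% of all genes did. That adds nothing to the count, because in all 20 the knockout libraries lay outside the wild types. The 11 were Gm15446, Plac9, Tmem254, Panx1, ENSMUSG00000095041, Hrct1, Adss2, BC051019, Cripto, Naa38 and the gene the authors' deposited table calls Pisd-ps1 (Gm74511 in GENCODE). DESeq2 passed 10 of these 11 against the controls (0.155% of all genes), all but Naa38, while edgeR passed Gm15446. In 14 of the 20 the direction matched with an unadjusted edgeR p under 0.05, which 6.58% of all genes had in either direction.

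Among the 11, Adss2, the gene of adenylosuccinate synthase 2 in purine synthesis, stood at 59.1, 68.7 and 58.1 CPM in the knockout, 74.3 to 88.5 CPM in the 6 controls (median 82.1) and 82.2 to 87.5 CPM in the wild types. The unmutated groups lay close together and the knockout lay below them (log2 fold change -0.41, SE 0.09, edgeR adjusted p = 0.489, DESeq2 adjusted p = 0.0124). Cripto, an EGF-CFC co-receptor gene of Nodal signalling, stood at 2.24, 3.26 and 5.18 CPM in the knockout and 5.92 to 14.2 CPM in the controls (median 7.94). BC051019 stood at 11.7, 7.65 and 9.26 CPM in the knockout and 12.8 to 26.8 CPM in the controls (median 18.6). For both genes the highest knockout library was just under the lowest control. Gm74511 is a long noncoding gene whose exons overlap Sfi1 and a separate GENCODE gene named Pisd-ps1, so the split of their counts is uncertain. It stood at 9.01, 10.1 and 8.35 CPM in the knockout, 5.0 to 6.43 CPM in the controls and 3.31 to 5.35 CPM in the wild types.

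The 20 genes were chosen for a difference between knockout and wild type, so where the knockout lies near the controls the choice itself sets the wild type away from them, and the wild-type values are given as a description. In 8 of the 20 the log2 fold change from the controls was smaller in size for the knockout than for the wild type, and these were Chic1, Rpl7a, Chchd2, Gle1, Ndufs5, Elob, Gpx4 and Timp4. For some of them the controls lay between the groups at similar distances. Timp4 was at -0.42 (SE 0.14) in the knockout and 0.44 (SE 0.15) in the wild type. Elob was at -0.24 (SE 0.13) and 0.29 (SE 0.13), and Ndufs5 at -0.25 (SE 0.11) and 0.33 (SE 0.10). Rpl7a, a protein gene of the large ribosomal subunit, stood at 326, 318 and 306 CPM in the knockout and 285 to 352 CPM in the controls, but at 390, 398 and 430 CPM in the wild types. The knockout sat inside the control range and the wild types sat above it. Its log2 fold change against the controls was -0.02 (SE 0.10) for the knockout and 0.35 (SE 0.11) for the wild type. Chic1 showed the mirror image, at 10.2, 11.9 and 12.8 CPM in the knockout, 9.68 to 15.8 CPM in the controls and 6.77, 5.99 and 6.22 CPM in the wild types. Chchd2, a mitochondrial intermembrane space protein gene, stood at 144, 140 and 140 CPM in the knockout, 138 to 168 CPM in the controls and 180 to 196 CPM in the wild types. The wild types lay outside the 6 controls for Rpl7a, Chic1, Chchd2, Gle1 and Ndufs5, and for Plac9 among the 11 above, beside 3.43% of all genes. None of these wild-type differences passed with edgeR. Gpx4, which reduces lipid peroxides, was at 217 ± 50.7 CPM (SD, n = 3) in the wild types, 128 ± 13.8 CPM in the knockout and 152 ± 24.5 CPM (SD, n = 6) in the controls. Ribosomal RNA genes took 4.12% to 5.84% of the wild-type counts, 2.32% to 3.09% of the knockout counts and 2.82% to 3.5% of the control counts apart from Y308F control 1, and the part of this in the 9 genes was not tested.

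**Figure D4:**
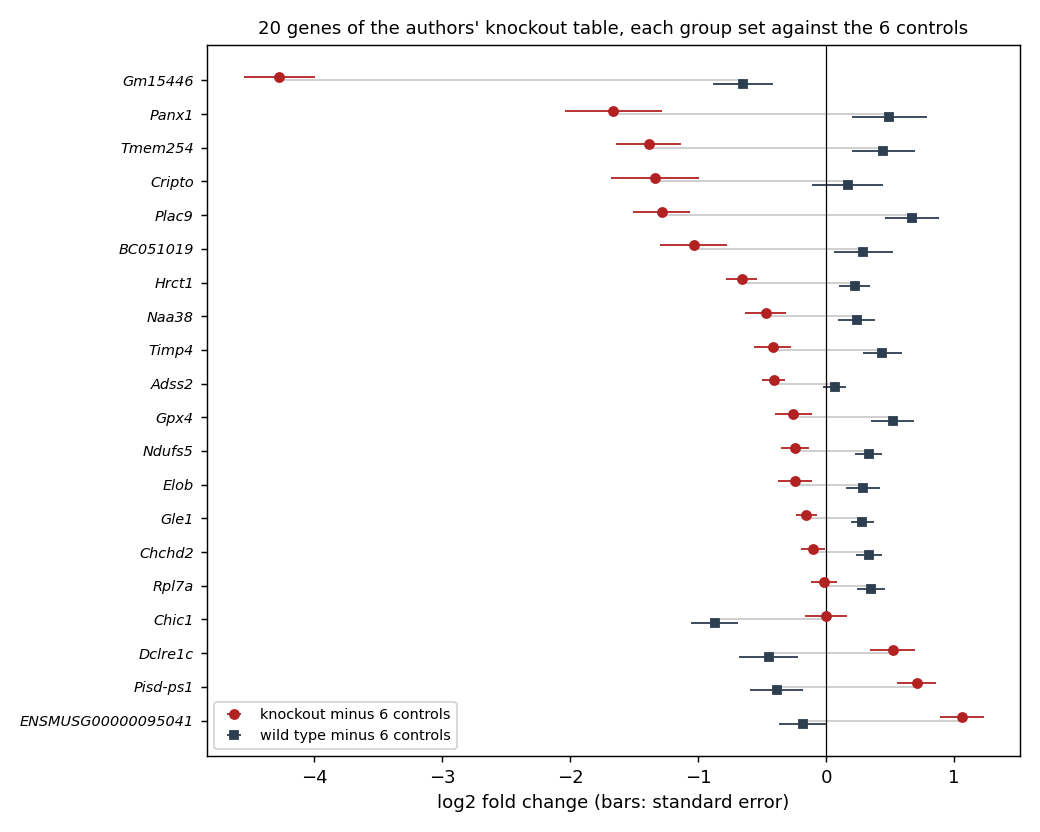
Log2 fold change of the knockout (red circles) and of the wild type (dark squares) against the same 6 controls, for the 20 genes past the threshold in the authors' deposited table. Bars are standard errors. For Gm15446 and Panx1 at the top the knockout is far from 0, while for Rpl7a and Chic1 it is at 0 and the wild type is not.

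DESeq2 also passed genes against the 6 controls that the authors' deposited table did not, and they are named here after their values were seen. Its 26 genes were called on these knockout and control libraries, so their distance from the controls restates the choice, and the wild types alone had no part in it. In 8 of the 26 the knockout overlapped the wild types. The share of all genes with such an overlap was not counted, so this number is a description only. St3gal5, which makes the ganglioside GM3, stood at 26.4, 36.8 and 35.4 CPM in the knockout, 49.9 to 63.4 CPM in the controls (median 54.7) and 42.0, 39.6 and 24.2 CPM in the wild types. Uck2, a uridine-cytidine kinase gene, stood at 29.2, 34.9 and 37.6 CPM in the knockout, 46.2 to 69.4 CPM in the controls and 43.8, 40.8 and 29.7 CPM in the wild types. In both genes the wild types were also below every control, so that the knockout and its own wild type lay together. Their knockout minus wild-type log2 differences were -0.12 (SE 0.19) and -0.19 (SE 0.17). Pappa, a protease gene that cleaves insulin-like growth factor binding proteins, stood at 5.22, 4.58 and 4.02 CPM in the knockout and 1.18 to 2.62 CPM in the controls, with wild types spread from 2.07 to 6.47 CPM. Ints6, a subunit of the Integrator complex, stood at 28.4, 27.6 and 27.8 CPM in the knockout and 15.5 to 21.1 CPM in the controls, with 1 wild type at 29.0 CPM and the others at 14.7 and 17.6 CPM.

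Other genes among the 26 are given with their wild types. Atoh8, a basic helix-loop-helix transcription factor gene, stood at 63.1, 54.3 and 51.1 CPM in the knockout, 76.3 to 108 CPM in the controls (median 93.5) and 87.4, 76.1 and 79.3 CPM in the wild types. The knockout lay below all 9 unmutated libraries, by -0.72 on the log2 scale against the controls (SE 0.12 and edgeR adjusted p = 0.197, DESeq2 adjusted p = 0.000102). Rnd1, a small GTPase gene, stood at 12.6, 13 and 12.6 CPM in the knockout, 17.4 to 36.6 CPM in the controls and 15.8 to 20.9 CPM in the wild types. The highest Rnd1 level, 36.6 CPM, was in Y308F control 1, which also held the most endothelial RNA, and without it the log2 fold change of Rnd1 went from -1.03 to -0.90. Cdk15, a protein kinase gene, was at 4.29 ± 0.792 CPM (SD, n = 3) in the knockout, 8.20 ± 1.22 CPM (SD, n = 6) in the controls and 7.99 ± 1.10 CPM in the wild types. Tspan8, a tetraspanin gene, was the 1 DESeq2 gene whose knockout libraries overlapped the controls, at 5.60 CPM in knockout 1 against 4.45 CPM in Y198F control 2, and they overlapped the wild types too, which ran from 4.44 to 12.3 CPM.

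The gene lists of arterial function held no member past the threshold. Over all lists, 0 of 260 different genes passed with edgeR and 27 had an unadjusted p under 0.05 (10.4%, beside 6.58% of all genes), 10 higher and 17 lower. DESeq2 passed Panx1 among them. The median log2 fold change of all genes tested was 0.0032. In the pannexin and connexin list, Panx1 was the 1 of 6 tested members with an unadjusted p under 0.05, and the endothelial connexin genes Gja4 and Gja5 had log2 fold changes of -0.32 (SE 0.16) and -0.63 (SE 0.33). The 14 endothelial genes had a median of -0.32, with 12 below 0, and the wild types had a median of -0.35 against the same 6 controls. Without Y308F control 1, which held the most endothelial RNA, the knockout median was -0.13 with 10 below 0. The wild-type median was not computed without it. With that library left out, Gja4 and Gja5 were at -0.29 (SE 0.16) and -0.32 (SE 0.14) in the knockout. Gja5 was then also under the unadjusted threshold in the edgeR fit across all genes (adjusted p = 0.684). In ATP and adenosine signalling the median of 18 tested genes was -0.0055, with 4 higher and 2 lower at an unadjusted p under 0.05. The receptor genes P2ry1 and P2ry14 were higher, at 0.52 (SE 0.17) and 1.19 (SE 0.38), and P2ry6 lower at -0.44 (SE 0.16). The ectoenzyme genes Entpd2 and Enpp1 were higher, at 0.44 (SE 0.16) and 0.42 (SE 0.18), and Ada, adenosine deaminase, was lower at -0.80 (SE 0.24). Mean levels of Entpd2 were 35.8 CPM in the knockout, 26.4 CPM in the controls and 40.4 CPM in the wild types, those of P2ry6 were 16.9, 22.9 and 17.3 CPM, and those of Ada were 5.68, 9.85 and 6.74 CPM, so that for these genes the wild-type mean lay on the side of the knockout. For P2ry1, at 12.9, 8.95 and 9.23 CPM, and Enpp1, at 52.9, 39.5 and 41.7 CPM, it lay nearer the controls. P2ry14 stood at 2.88 to 5.28 CPM in the knockout, 0.750 to 3.27 CPM in the controls and 2.96 to 5.51 CPM in the wild types, so that knockout and wild type again lay together and overlapped the controls.

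In the adrenergic receptor list 0 of 9 genes passed, 2 had an unadjusted p under 0.05, both lower (beside 3.2% of all genes), and the median was -0.25. Adra1d, the alpha-1D receptor of arterial muscle, stood at 22.6, 19.2 and 20.9 CPM in the knockout and 23.6 to 36.6 CPM in the 6 controls, without overlap, but the wild types ran from 15.4 to 29.1 CPM on both sides of the knockout. Its log2 fold change was -0.52 (SE 0.14 with an unadjusted p = 0.00297, edgeR adjusted p = 0.738). Adra2a, the alpha-2A receptor, had a log2 fold change of -0.76 (SE 0.28), at 5.18 ± 2.32 CPM (SD, n = 3) in the knockout, 8.74 ± 1.65 CPM (SD, n = 6) in the controls and 5.19 ± 2.48 CPM (SD, n = 3) in the wild types. Edn1, the gene of the vasoconstrictor endothelin 1, also lay below the controls with wild types on both sides of the knockout, at 46.9, 51.0 and 58.1 CPM in the knockout, 64.7 to 138 CPM in the controls and 77.3, 34.6 and 38.5 CPM in the wild types. The 138 CPM was in Y308F control 1, and the next highest control was at 102 CPM. Without that library the log2 fold change of Edn1 went from -0.82 to -0.66. In the 16 smooth muscle contractile genes 0 had an unadjusted p under 0.05, and the log2 fold changes ran from -0.31 to 0.05 (median -0.14). Among the 18 arterial ion channel genes the median was -0.03, the calcium release channel gene Ryr2 was higher at 0.44 (SE 0.18), and Trpc6 and Stim1, genes of calcium entry, were lower at -0.61 (SE 0.25) and -0.25 (SE 0.10), each at an unadjusted p under 0.05 (3 of 18, beside 6.58% of all genes).

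Genes of the matrix lay on both sides. Eln, which encodes elastin, stood at 3243, 5297 and 4104 CPM in the knockout, 4889 to 10821 CPM in the controls (median 7677) and 6285, 5098 and 2872 CPM in the wild types, and the knockout overlapped both. Its log2 fold change was -0.90 (SE 0.28 and edgeR adjusted p = 0.738), and that of Fn1, fibronectin, was -0.48 (SE 0.17). Lum, a small proteoglycan gene of fibroblasts, was higher at 0.52 (SE 0.22), with 149 to 200 CPM in the knockout and 66.0 to 149 CPM in the controls. The fibroblast and matrix list as a whole had a median of -0.13 over 14 genes. Eln, Fn1 and Lum were its 3 members with an unadjusted p under 0.05 in the edgeR fit (beside 6.58% of all genes).

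**Figure D5:**
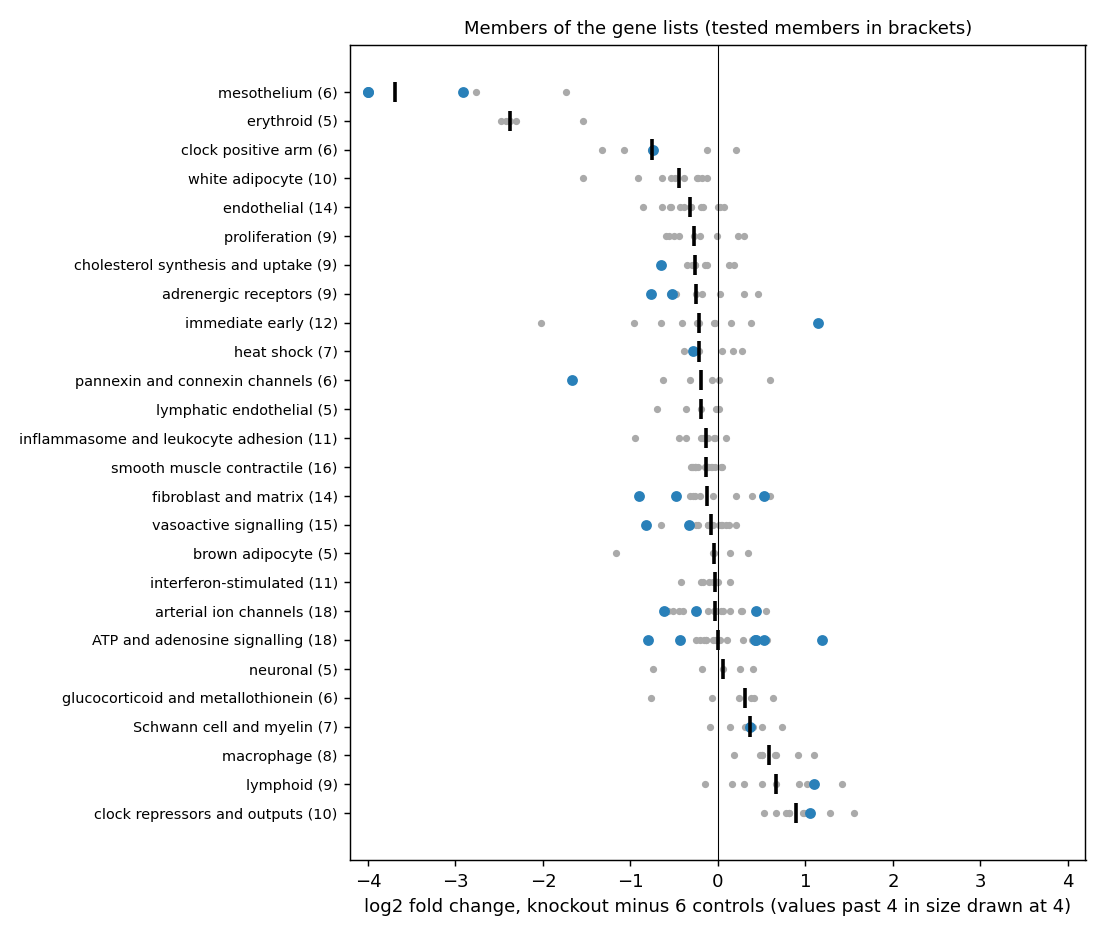
Log2 fold change of the knockout against the 6 controls for each tested member of the gene lists, 1 row per list with the number tested in brackets. Black bars are list medians, blue points have an unadjusted p under 0.05 and values beyond 4 in size are drawn at 4. Among the arterial function lists the endothelial and adrenergic receptor medians are -0.32 and -0.25. The mesothelium, erythroid, clock, lymphoid and macrophage medians lie farther from 0.

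Marker lists of other cells varied widely between libraries of 1 group. The 6 mesothelium genes summed to 0.0944 to 1.55 CPM in the knockout and 0.273 to 30.8 CPM in the controls, with 30.8 and 23.4 CPM in Y308F controls 1 and 2, 6.99 CPM in Y198F control 1 and at most 1.41 CPM in the other 3. All 6 had negative log2 fold changes, with a median of -3.69 (-2.80 in the wild types), and 3 had an unadjusted p under 0.05 (beside 6.58% of all genes). The defining marker Msln had at most 2 counts in any knockout library and 168 in Y308F control 1. The erythroid genes summed to 18.7 to 35.6 CPM in the knockout and 15.7 to 509 CPM in the controls, with a median log2 fold change of -2.38 (0.43 in the wild types) and 0 of 5 at an unadjusted p under 0.05. White adipocyte genes summed to 625 to 1401 CPM in the knockout, 619 to 2537 CPM in the controls and 1174 to 3719 CPM in the wild types, and all 10 had negative log2 fold changes against the controls (median -0.44, and 0.91 in the wild types). The 8 macrophage genes were all positive (median 0.58, and 0.16 in the wild types), with sums of 80.7 to 142 CPM in the knockout and 26.5 to 125 CPM in the controls. The part of these markers in the results above was not tested.

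Clock genes differed widely within the knockout and the Y308F controls. The 10 genes of the clock repressors and outputs, which oscillate through the day, summed to 1792, 629 and 832 CPM in knockout libraries 1 to 3, to 283, 359 and 396 CPM in the Y198F controls, to 159, 1177 and 1416 CPM in the Y308F controls and to 884, 1359 and 1697 CPM in the wild types. The knockout lay above the Y198F controls. Knockout 1 was above every other library, and the other knockout libraries were within the range of the Y308F controls and below the wild types. All 10 had positive log2 fold changes against the 6 controls, with a median of 0.89, and the median for the wild types was 1.17. Per1, a core repressor, was the 1 of these 10 with an unadjusted p under 0.05 (beside 6.58% of all genes), at 1.05 (SE 0.45 and edgeR adjusted p = 0.738). The 6 genes of the positive arm, which drive the repressors, had a median of -0.75 in the knockout and -1.0 in the wild types. That list held 1 such gene, Cry1, itself a repressor, which was lower at -0.74 (SE 0.26). The time of day at which arteries were taken is not given in the sources used here.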

How the data were processed

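Bulk RNA of 12 libraries was used. Per the submitters' processing notes, reads were mapped to GRCm39 with STAR 2.7.9a and counted with featureCounts. The deposited counts are whole numbers, not normalized, for 57010 gene identifiers, of which 56310 matched GENCODE vM39. Neither the annotation release nor the use of strand is given in the sources used here, so genes that overlap or have near copies are uncertain. The authors' deposited table of knockout against wild type, made with DESeq2 1.46.0, holds log2 fold changes and adjusted p-values. The authors also deposited a normalized signal and a test score, not used here.

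The main test was edgeR 4.0.16 (R 4.3.3), quasi-likelihood with robust dispersion, TMM and filterByExpr, with Benjamini-Hochberg adjustment over all genes tested and a threshold of 0.05. The 6 controls were 1 group. Standard errors came from the fold change and its statistic. CPM used TMM over the 12 libraries. Single values were compared by exact permutation. DESeq2 1.42.0, limma 3.58.1 voom, RLE factors, no filter, other control sets, a replicate block and each library left out were alternatives. Genes named by rule were the Panx family and genes past the threshold. Others are genes of the authors' deposited table, of DESeq2, of gene lists or beside them, and members and lists were chosen with earlier results of these data known. Replicates differed by 13.6 to 85.2 chi-square per degree of freedom, so each counted as 1 sample. The floor of 3 counts and its bounds cover counting error only. Sequences are those of RefSeq on GRCm38.p6.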

Additional observations from a re-analysis of the deposited data

Results flagged for a closer look

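Of 38 values tested over the 6 controls for 1 library far from the rest, 3 were past the limit for 6 libraries, and chance alone gives about 1 in 20. Hrct1 stood at 30.8 CPM in Y308F control 1, and the next control was at 26.0 CPM, which widened the control spread of a gene that was lower in all 3 knockout libraries. The summed endothelial genes stood at 11687 CPM in the same library, and the next control held 5998 CPM. The summed immediate early genes stood at 2350 CPM in Y198F control 1, and the next control held 882 CPM. Neither sum belongs to a gene list with a member past the threshold.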

How the results depend on the processing

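Against the 6 controls, the count of 1 gene became 26 with DESeq2, 6 with limma voom, 9 without the filter, 3 with the control lines as separate groups, 2 with the Y198F controls alone, 5 with the Y308F controls alone, 5 with 12 libraries in 4 groups and 3 with all 9 unmutated libraries as controls. Leaving out 1 library gave 1 to 3 genes, with 3 without knockout 1 and 2 without Y198F control 2 or Y308F control 1. Gm15446 was among the calls each time. Against wild type the count of 6 became 107 with DESeq2 and 16 without the filter, and leaving out 1 library gave 3 to 12, with 12 without Y308F control 1 and 3 without any 1 of the knockout libraries, wild type 1 or 2, or Y198F control 1 or 3. For the wild type against the 6 controls the count of 0 became 39 with DESeq2 and 3 with the Y198F controls alone. Leaving out 1 library gave 0 to 2, with 2 without wild type 1 and 1 without wild type 2. DESeq2 against the 6 controls passed 54 genes without Y308F control 1, and 940 in place of 730 genes had knockout libraries outside the controls, both computed after seeing the data, as were the other values without that library for DESeq2, group overlap, the endothelial list and the connexins.

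The replicate number as a block gave 1 gene against the 6 controls, 3 against wild type and 0 for the wild type. Whether the numbers pair the samples was not settled. Of 18 same-number pairs, 4 had deviations correlated over 0.1, from -0.31 to 0.27 over all pairs. Knockout and wild type were at -0.093, 0.15 and 0.27 for replicates 1 to 3. Pairs of different numbers were not compared, so these values cannot exclude a pairing. The Panx1 difference ran from -2.36 to -1.85 CPM with 1 library left out, and without any 1 knockout library the exact permutation p was 0.0714, the smallest possible there. Of the 29 genes followed by name, 27 kept their direction in all alternatives; over all 29, 489 values kept the call and 44 passed where the main test did not. Rpl7a turned to 0.026 with limma voom and 0.073 with the Y198F controls alone, and ran from -0.047 to 0.020 with 1 library left out. Chic1 turned to -0.0043 with DESeq2, -0.0048 with limma voom, -0.0048 with DESeq2 size factors, -0.15 with the Y198F controls alone and -0.0063 with 12 libraries, and ran from -0.079 to 0.10 with 1 library left out. Both sat near 0 in the main fit, and the cause of each move was not tested. Panx1 rests on 11 to 27 counts per knockout library, which limits the precision of its fold change.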

Other observations

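Erdr1x and Erdr1y, near-identical genes at the shared end of the sex chromosomes whose counts may be split between them, differed between lines. Erdr1x stood at 28.7, 26.9 and 40 CPM in the knockout, 16.0, 16.3 and 21.7 CPM in the wild types, 0.226, 14.5 and 12.3 CPM in the Y198F controls and 0.405, 0 and 0.492 CPM in the Y308F controls. The knockout lay above all 9 unmutated libraries, the wild types above all 6 controls, and Y198F control 1 with the Y308F controls rather than with its own line. The log2 fold change against the 6 controls was 2.78 (SE 1.27 and edgeR adjusted p = 0.738), and against the Y308F controls alone it was 6.70 (edgeR adjusted p = 0.0212), 1 of 19 alternatives in which it passed. These genes were picked after their values were seen.

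Leaving out knockout 1 brought 2 homeobox genes past the threshold against the 6 controls, Hoxa9 at -2.30 (edgeR adjusted p = 0.00667) and Hoxc8 at -1.29 (edgeR adjusted p = 0.0213), which passed in no other of the 19 alternatives.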
